A study of Homo sapiens with 105 samples.

Results

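Caco-2 libraries labelled replicate 3 (titles ending in Z3) were compared with those labelled replicate 2 (titles ending in Z2) of the same treatment group. Libraries were taken by these title endings, and those sequenced in lanes 2, 3 and 4 of flow cell 1 were left out, since the comparison was defined without them. This gave 55 of the 105 libraries of the series, 27 of replicate 3 and 28 of replicate 2. They covered 28 treatment groups and formed 27 pairs, since the 48 h PBS group kept its replicate 2 library alone.

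Caco-2 is a human colon adenocarcinoma line, here ATCC HTB-37, that was split weekly and used over a range of passages. Per the labels and methods, cells in multiwell plates received bacterial extracellular vesicles (BEVs) in the medium, or RNA purified from BEVs by lipofection. Vesicles of Enterococcus faecalis (EfMV) were given at 7.5e+09 particles, those of Lacticaseibacillus casei (LcMV) at 1.5e+11 and those of Proteus mirabilis (PmOMV) at 6e+09. RNA of E. faecalis vesicles (EfRNA) was transfected at 5 ng, of L. casei vesicles (LcRNA) at 100 ng and of P. mirabilis vesicles (PmRNA) at 2 ng. The controls were AllStars Negative Control siRNA (ANC) transfected at 100, 5 or 2 ng, P. mirabilis LPS incubated (0.2) or transfected (1), and PBS. The LPS doses are labelled as ng per µl, whereas the methods give them per ml. RNA was taken after 10 h (12 pairs), 24 h (12 pairs) and 48 h (3 pairs, namely ANC at 100 ng, LcMV and LcRNA). Both replicates carried every treatment with the exception named, so a treatment effect that both replicates share cancels within a pair. An unequal response of the replicates does not cancel, and it was not tested for single treatments. Lane does not cancel in most pairs either, since 5 of the 27 shared flow cell and lane. No library label gives the passage, the seeding day or a separate culture. The p-values therefore measure the spread between these libraries, and replicate number is used only as the label that it is.

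Caco-2 cells were isolated from a colon tumour but, when they grow dense, switch on genes of small intestinal absorptive cells. Brush border hydrolases, lipid handling apolipoproteins and several plasma proteins otherwise made by liver belong to that programme. Crypt genes, by contrast, are driven by WNT signalling, which is constantly active in these cells through loss of APC. The line is aneuploid and is known to differ between laboratories and between subclones in karyotype, growth and enzyme levels.

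The total gene count per library was 632659 to 8387329 in replicate 3 (median 5463751) and 1384362 to 8558755 in replicate 2 (median 5734533). There were 5 libraries under 2000000 counts. In replicate 3 they were ANC 5 ng 10 h, PmRNA 10 h, LcRNA 24 h and transfected LPS 24 h, and in replicate 2 EfMV 24 h. Both sets of libraries held the defining genes of the line. VIL1, the actin bundler of microvilli, had medians of 523 CPM (read counts scaled to library size) in replicate 3 and 486 CPM in replicate 2, and the epithelial adhesion gene EPCAM had medians of 524 CPM in replicate 3 and 538 CPM in replicate 2. Of 24 markers of blood, vascular, stromal, muscle, squamous and glial cells, 11 passed the filter on low counts, with 4 higher and 4 lower in replicate 3. Their summed level was 80.6 to 141 CPM in replicate 3 and 61.2 to 128 CPM in replicate 2. PTPRC, COL1A2 and KRT5 were at 0 in every replicate 3 library and at most 0.209 CPM in replicate 2. COL3A1 and PDGFRA, a fibrillar collagen and a growth factor receptor of stromal cells, were higher in replicate 3, with medians of 2.24 and 30.7 CPM in replicate 3 against 0.284 and 10.4 CPM in replicate 2. The stromal gene LUM went the other way, with medians of 4.72 CPM in replicate 3 and 7.68 CPM in replicate 2. COL1A1 and MYH11 were present in both sets, with medians of 41.6 and 16.4 CPM in replicate 3 and 35.5 and 15.3 CPM in replicate 2. In bulk RNA, a smaller number of cells of some kind cannot be told apart from less RNA per cell. Mitochondrial transcripts took 8.69 to 30.7% of counts in replicate 3 (median 10.5%) and 8.82 to 15.4% in replicate 2 (median 11.4%), and the highest value belonged to the LcRNA 24 h library of replicate 3.

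The replicate 3 libraries differed from the replicate 2 libraries in a broad set of genes and in whole chromosome regions. UCA1, BCL11A, VCAN, FN1 and the stem cell receptor gene LGR5 were higher in replicate 3. The digestive hydrolase genes SI and LCT, the protease inhibitor gene TIMP1 and 19 of 24 genes of sterol and fatty acid synthesis were lower. Genes of chromosomes 21 and 5 were shifted upwards together and those of chromosome 13 downwards together. Of 20643 genes tested with edgeR's quasi-likelihood test (Benjamini-Hochberg adjusted p under 0.05, treatment group as a block), 5959 (28.9%) were higher in replicate 3 and 5749 (27.8%) were lower. Most differences were small, with a median absolute log2 fold change of 0.30 among called genes. A log2 fold change of at least 1 was found for 602 higher and 282 lower genes, and one of at least 2 for 165 higher and 23 lower genes. In 160 genes (0.775%) the lowest replicate 3 library lay above the highest replicate 2 library, and in 114 genes (0.552%) the highest replicate 3 library lay below the lowest replicate 2 library. The difference had the same sign in all 27 pairs for 880 higher and 863 lower genes.

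BCL11A (chromosome 2, 60450520 to 60554467, minus strand, GRCh38), a zinc finger repressor known from fetal globin silencing and neurons, had 7.55, 11.9 and 14.5 CPM as the lowest, median and highest replicate 3 values, against 0, 0.196 and 0.996 CPM in replicate 2. The groups did not overlap, and the gene was close to silent in replicate 2. The log2 fold change was 5.46 ± 0.14 (SE, 27 pairs, edgeR adjusted p = 1.21e-46), from 1598 counts in replicate 3 and 36 in replicate 2. UCA1 (chromosome 19, 15828206 to 15836328, plus strand), a long noncoding RNA first described in bladder carcinoma, had 44.1, 55.6 and 77.4 CPM in replicate 3, against 1.05, 2.99 and 4.94 CPM in replicate 2. Its log2 fold change of 4.28 ± 0.06 carried the smallest adjusted p of the comparison, 3.33e-64. UCA1 was thus expressed in both sets, at levels 19.5-fold apart.

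Several genes of the extracellular matrix and of axon guidance were among the highest fold changes. VCAN, which encodes the large matrix proteoglycan versican, had 4.72, 9.76 and 27.8 CPM in replicate 3, against 0, 0.196 and 3.53 CPM in replicate 2. ROBO1, the receptor for SLIT guidance cues, had 6.83, 10.5 and 15.7 CPM in replicate 3, against 0, 0.308 and 0.996 CPM in replicate 2. SEMA5A, a semaphorin, had 17.0, 24.8 and 27.9 CPM in replicate 3, against 0.699, 2.07 and 4.24 CPM in replicate 2. For each of these genes the replicates were fully separated. Their log2 fold changes were 5.03 ± 0.18 for VCAN, 4.79 ± 0.12 for ROBO1 and 3.53 ± 0.08 for SEMA5A. The adhesion gene SDK1 (4.26), the zinc finger gene ZNF300 (4.24), the secreted protease inhibitor CST1 (4.55) and the keratin gene KRT23 (4.49) also rose in every pair. TLL1, a procollagen processing protease (5.38), PLD5 (5.32) and FSTL5 (4.99) had a median of 0 CPM in replicate 2 and of 3.06, 2.71 and 2.53 CPM in replicate 3. XKR6 had 310 counts over all replicate 3 libraries and 3 over all replicate 2 libraries, a ratio of 118 with a 95% counting interval of 40 to 575. That interval covers counting error only. DPYSL3 (2.72) and the dopamine receptor gene DRD2 (2.33) had smaller fold changes at small p, with DRD2 at 15.03 to 61.9 CPM in replicate 3 and 2.72 to 15.05 CPM in replicate 2, which meet at the edge.

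Higher levels in replicate 3 were not limited to genes with few counts. TGFBI, a matrix protein induced by TGF-beta, had 190.0, 249 and 351 CPM in replicate 3, against 83.2, 98.2 and 153 CPM in replicate 2 (log2 fold change 1.37 ± 0.02). APP (chromosome 21, 25880535 to 26171128, minus strand), the amyloid precursor gene, had 335, 379 and 397 CPM in replicate 3, against 163, 194 and 218 CPM in replicate 2 (0.95 ± 0.02). SLC12A2, the basolateral sodium, potassium and chloride cotransporter, had medians of 317 CPM in replicate 3 and 122 CPM in replicate 2, and its ranges overlapped. FN1, the fibronectin gene, and LYZ, the lysozyme gene, were picked for mention after their values were seen. FN1 had 6401, 7204 and 8281 CPM in replicate 3, against 2198, 2575 and 4015 CPM in replicate 2, a 2.53-fold difference without overlap in one of the most counted genes. LYZ had 145, 169 and 205 CPM in replicate 3, against 3.56, 10.02 and 13.4 CPM in replicate 2. An antisense gene model, ENSG00000257764, overlaps LYZ and rose by a similar amount (4.04 against 4.14 for LYZ on the log2 scale). The strand setting of the counting is not given in the sources used here, so the reads of these overlapping models cannot be told apart.

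**Figure D1:**
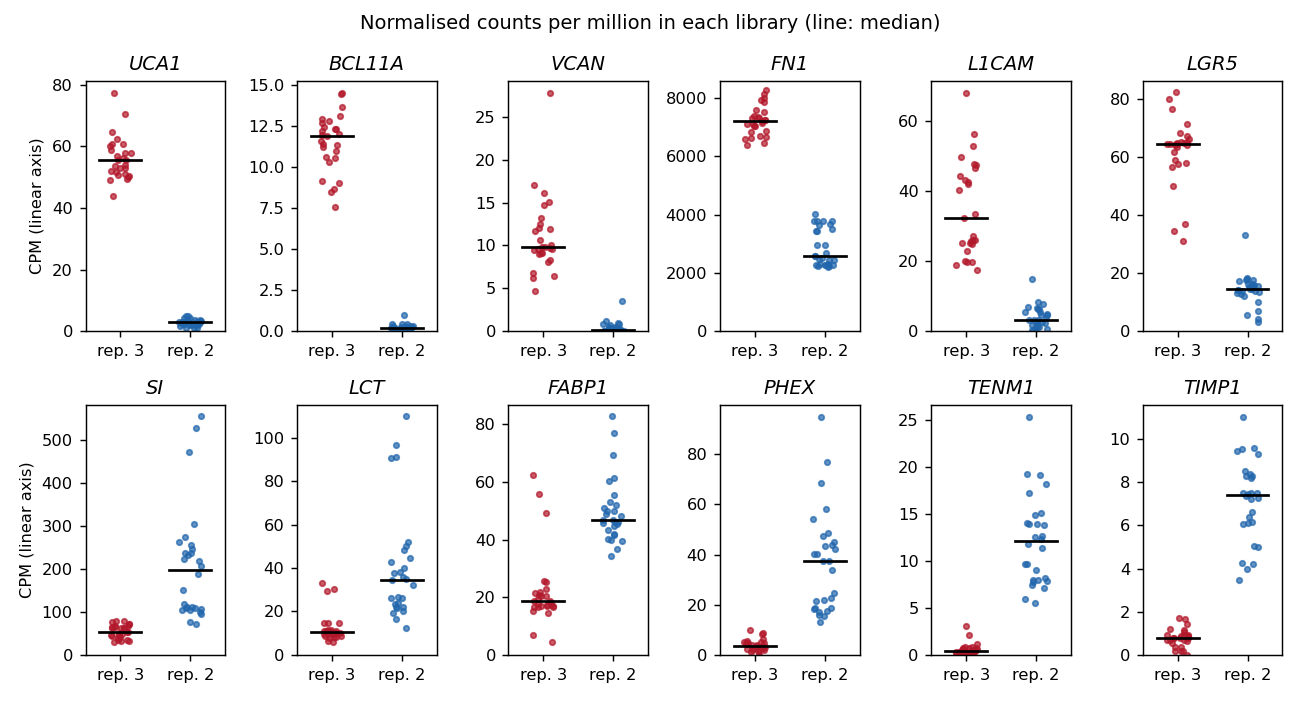
Each point is 1 library (27 of replicate 3 in red, 28 of replicate 2 in blue), the vertical axis is CPM on a linear scale starting at 0, and the line is the median. The top row shows genes higher in replicate 3, with UCA1 at 44.1 to 77.4 CPM in replicate 3 and 1.05 to 4.94 CPM in replicate 2; the bottom row shows genes lower in replicate 3, of which SI, LCT and FABP1 overlap between the replicates.

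Among the genes that fell, the clearest was TENM1 (chromosome X, 124375903 to 125204312, minus strand), a teneurin cell surface protein. It had 0, 0.419 and 3.04 CPM in replicate 3, against 5.53, 12.1 and 25.3 CPM in replicate 2 (log2 fold change -4.47 ± 0.13, edgeR adjusted p = 1.93e-43, 27 pairs). TENM1 overlaps a highly counted gene on the other strand, STAG2. PHEX (chromosome X, 22032325 to 22494713, plus strand), a membrane endopeptidase of phosphate balance, had 0, 3.74 and 10.06 CPM in replicate 3, against 12.96, 37.4 and 94.97 CPM in replicate 2 (-3.06 ± 0.06). The antisense gene PTCHD1-AS, which lies within PHEX, fell with it (-3.32 ± 0.17), and their reads cannot be told apart. TIMP1, the inhibitor of matrix metalloproteinases, had 0, 0.775 and 1.71 CPM in replicate 3, against 3.48, 7.41 and 11.03 CPM in replicate 2 (-3.09 ± 0.12). These 3 protein-coding genes are all on chromosome X and did not overlap between the replicates, although the median of the genes of chromosome X differed by only -0.02 on the log2 scale. The median of the genes from 120 to 130 Mb, where TENM1 lies, differed by -0.17. From 20 to 30 Mb, where PHEX lies, it differed by -0.03 and did not pass the test.

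The other large decreases came from genes of different kinds. NPC1L1, the intestinal cholesterol importer, had 19.8, 33.6 and 57.2 CPM in replicate 3, against 66.2, 87.1 and 126 CPM in replicate 2 (-1.34 ± 0.03). AOC1, the diamine oxidase that degrades histamine, had medians of 5.50 CPM in replicate 3 and 25.6 CPM in replicate 2 (-2.09 ± 0.06), and SULT1C4, a sulfotransferase, had medians of 5.45 CPM in replicate 3 and 25.7 CPM in replicate 2 (-2.15 ± 0.06). NDNF, a secreted neurotrophic factor, had 17.9 to 37.2 CPM in replicate 3 and 61.6 to 101.8 CPM in replicate 2 (-1.70 ± 0.04). All of these fell in 27 of 27 pairs. So did DSC3, a desmosomal cadherin (-2.60), FBP1, the gluconeogenic fructose bisphosphatase (-2.32), the muscarinic receptor gene CHRM3 (-2.37), ERP27 (-2.85), RAB38 (-2.93) and THSD7A (-2.42). GAK and CTBP1 lie close together at the end of the short arm of chromosome 4 and had small p with modest fold changes. CTBP1, a transcriptional corepressor (chromosome 4, 1211445 to 1250333, minus strand), had 125, 167 and 183 CPM in replicate 3, against 268, 293 and 313 CPM in replicate 2 (-0.81 ± 0.02). GAK, the cyclin G associated kinase, differed by -0.83 ± 0.02, likewise without overlap.

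Of 27 tested genes of the enterocyte and brush border, 8 were higher and 17 lower in replicate 3, with a median log2 fold change of -0.37, beside 28.9% higher, 27.8% lower and a median of 0.00 over all genes. The same shares over all genes are the background for the counts of the lists below. Protein-coding genes alone were called more often, with 4707 higher and 4422 lower of 13590 tested. SI, the sucrase-isomaltase of the brush border, had 28.9, 52.8 and 79.3 CPM in replicate 3, against 72.4, 197 and 556 CPM in replicate 2 (-1.74 ± 0.10). LCT, the lactase gene, had 5.76, 10.5 and 33.2 CPM in replicate 3, against 12.3, 34.7 and 110.0 CPM in replicate 2 (-1.59 ± 0.05). ALPI, the intestinal alkaline phosphatase, had 6.08, 20.6 and 26.4 CPM in replicate 3, against 33.1, 46.8 and 61.3 CPM in replicate 2 (-1.22 ± 0.04). ALPI was separated between the replicates, whereas SI and LCT fell in every pair but overlapped across treatments and times. KRT20, a keratin of differentiated colonic and gastric surface cells, went the other way, with 2.41 to 10.4 CPM in replicate 3 and 0 to 1.85 CPM in replicate 2 (2.35 ± 0.14). SLC6A19 (0.72) and MGAM (0.68), a neutral amino acid transporter and the maltase-glucoamylase, were also higher, at medians of 2.56 CPM or less. FABP1, the cytosolic fatty acid binding protein gene, and APOC3 were looked up after their values were known. FABP1 had medians of 18.7 CPM in replicate 3 and 46.8 CPM in replicate 2, and APOC3, an apolipoprotein of triglyceride-rich particles, averaged 50.9 CPM in replicate 3 and 134 CPM in replicate 2.

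The intestinal transcription factors were split, with 9 of 18 higher and 8 lower (median 0.11). ESRRG, an orphan nuclear receptor, had 11.1, 15.0 and 21.9 CPM in replicate 3, against 1.97, 3.15 and 6.35 CPM in replicate 2 (2.17 ± 0.08), and GATA5 differed by 1.12 ± 0.16. HNF4G, the paralogue of HNF4A that is enriched in gut epithelium, had 5.78, 9.44 and 15.03 CPM in replicate 3, against 14.5, 22.2 and 34.6 CPM in replicate 2 (-1.17 ± 0.05). PPARA (-0.52) and GATA4 (-0.50) were lower, and GATA4 and GATA5 thus moved in opposite directions. CDX2, the caudal homeobox factor of intestinal identity, was lower by a small amount, with medians of 194 CPM in replicate 3 and 229 CPM in replicate 2 (-0.30 ± 0.04), and it lies on chromosome 13. HNF4A, added after its value was seen, differed by only -0.06 ± 0.02, a call that was lost without any of 7 single treatment groups.

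Colonocyte markers were higher for 6 of 11 tested genes and lower for 2 (median 0.44). The 3 with the highest fold changes were all carcinoembryonic antigen family adhesion genes of chromosome 19. CEACAM6 had 43.7, 61.8 and 138 CPM in replicate 3, against 5.36, 31.4 and 110 CPM in replicate 2 (0.97 ± 0.13), and CEACAM1 had medians of 20.97 CPM in replicate 3 and 10.5 CPM in replicate 2 (1.32 ± 0.13). CEACAM7 was near the limit of detection, with medians of 0.722 CPM in replicate 3 and 0 CPM in replicate 2, and its log2 fold change of 3.50 became 4.11 without the PmOMV 10 h pair. The carbonic anhydrase gene CA2 (-0.44) and the chloride exchanger gene SLC26A3 (-0.33) were lower, SLC26A3 in 17 of 27 pairs only. Of 7 tested goblet and enteroendocrine genes 3 were higher, led by the mucus protein gene FCGBP (2.11) and the gastric type mucin gene MUC5AC (1.78), and 4 were lower, led by the lectin gene ZG16 (-1.29).

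Of 18 tested genes of the crypt base and of WNT signalling, 10 were higher and 4 lower (median 0.23). LGR5, the R-spondin receptor that marks intestinal stem cells, had 31.1, 64.6 and 82.4 CPM in replicate 3, against 3.35, 14.6 and 33.2 CPM in replicate 2 (2.08 ± 0.06). CD44, a hyaluronan receptor and WNT target, had 14.2, 25.8 and 57.0 CPM in replicate 3, against 1.17, 5.48 and 18.7 CPM in replicate 2 (2.19 ± 0.07). SMOC2, a matricellular protein of crypt base cells, had 1.15 to 7.04 CPM in replicate 3 and 0 to 0.555 CPM in replicate 2 (4.04 ± 0.21). All 3 rose in every pair, while LGR5 and CD44 overlapped slightly between the replicates. TSPAN8 lies across part of LGR5 on the other strand. The receptor gene EPHB3 (-0.87) and the nuclear WNT effector gene LEF1 (-0.32) fell.

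Mesenchymal and invasion genes were higher for 11 of 16 tested members and lower for 1 (median 0.42). L1CAM, a neural adhesion molecule found at the invasive edge of colon tumours, had 17.4, 32.2 and 68.0 CPM in replicate 3, against 0, 3.18 and 15.01 CPM in replicate 2 (3.08 ± 0.10). VIM, the intermediate filament of mesenchymal cells, was barely expressed, with medians of 0.610 CPM in replicate 3 and 0 CPM in replicate 2, so that its log2 fold change of 3.62 ± 0.39 rests on few reads. ITGB6, the epithelial integrin subunit that activates latent TGF-beta, was the member that fell (-1.30 ± 0.15). The number of lower members was 2 without any of 9 single pairs or without the libraries under 2000000 counts, and 3 with lane terms added to the model.

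**Figure D2:**
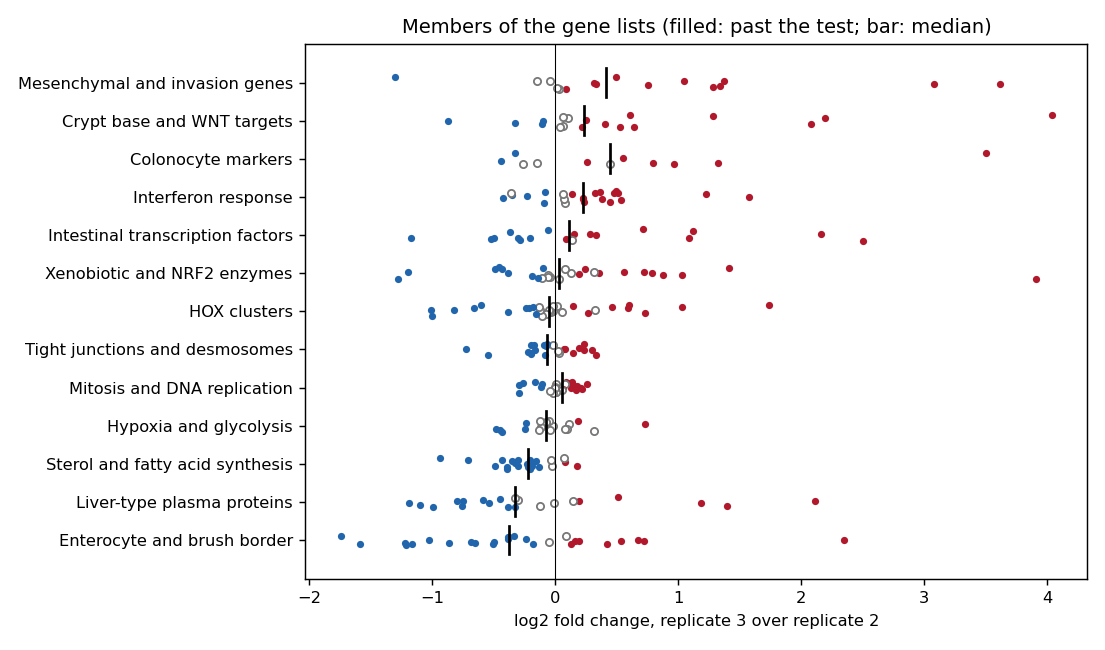
Each point is a tested gene of the list named on the left, placed by its log2 fold change of replicate 3 over replicate 2 (horizontal axis), filled where it passed the test (red higher, blue lower in replicate 3) and open where it did not. The black bar is the list median, which runs from 0.44 for colonocyte markers to -0.37 for the enterocyte and brush border genes.

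Of 24 genes of sterol and fatty acid synthesis, 19 were lower, 2 were higher and 3 did not pass the test (median -0.22). INSIG1, the sterol sensing retention factor of the SREBP system and itself an SREBP target, had 63.4, 112 and 332 CPM in replicate 3, against 134, 215 and 575 CPM in replicate 2 (-0.94 ± 0.06). ELOVL6, a fatty acid elongase, had medians of 21.5 CPM in replicate 3 and 35.04 CPM in replicate 2 (-0.71 ± 0.04), and SC5D, a desaturase of cholesterol synthesis, of 183 CPM in replicate 3 and 269 CPM in replicate 2 (-0.49 ± 0.04). LSS, the lanosterol synthase gene, lies on chromosome 21 and was higher (0.18 ± 0.04).

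Plasma protein genes that liver cells also use were lower for 11 of 21 and higher for 5 (median -0.33). AHSG, the fetuin gene, had 297, 371 and 817 CPM in replicate 3, against 567, 802 and 2017 CPM in replicate 2 (-1.10 ± 0.03). FGB, a fibrinogen chain, had 28.2, 40.1 and 52.1 CPM in replicate 3, against 53.9, 90.4 and 176 CPM in replicate 2 (-1.19 ± 0.05), and its neighbour FGG differed by -0.99 ± 0.10. ITIH2, an inter-alpha-trypsin inhibitor heavy chain, went up, with 50.2, 64.0 and 79.3 CPM in replicate 3, against 13.9, 25.0 and 31.0 CPM in replicate 2 (1.40 ± 0.04). TF, the transferrin gene, had medians of 5.32 CPM in replicate 3 and 1.07 CPM in replicate 2 (2.12 ± 0.13) and overlaps the more counted SRPRB on the same strand. Members of this list thus differed in both directions.

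Of the remaining lists, those of interferon response, ATF4 targets, imprinted genes, and mitosis and DNA replication held more higher than lower genes. The others showed no single direction or moved by small amounts. As background for all of these lists, 28.9% of all genes tested were higher and 27.8% lower. The counts of the NF-kappaB and HOX lists lay near these shares. Interferon response genes were higher for 14 of 23 and lower for 5 (median 0.23), with IFI6 (1.23) and MX1 (0.54) as examples, and PSMB9 (1.58) at medians of 0.456 CPM in replicate 3 and 0.168 CPM in replicate 2. ATF4 target genes of amino acid stress were higher for 10 of 19 and lower for 4, led by the mitochondrial folate enzyme gene ALDH1L2 (1.79), the lipoprotein receptor gene VLDLR (1.39) and ATF3 (1.26). Of 27 xenobiotic and NRF2 enzymes 10 were higher and 9 lower. UGT1A6, a glucuronosyltransferase, had 3.42 to 15.1 CPM in replicate 3 and 0 to 1.59 CPM in replicate 2 (3.91 ± 0.13), but shares exons with the other UGT1A genes, so this value is uncertain. The glutathione transferase genes GSTA1 (-1.28) and GSTA2 (-1.19), near-identical paralogues, were lower. HOX genes were higher for 8 of 30 and lower for 10, with HOXB9 at 1.74, HOXA13 at 1.03 and HOXD3 at -1.01. CDKN1C, an imprinted cell cycle inhibitor, rose by 1.60 and PLAGL1, an imprinted zinc finger gene, fell by 0.91, among 7 higher and 3 lower of 14 imprinted genes. Junction genes were higher for 8 of 23 and lower for 12, all within 0.73 on the log2 scale. Genes of mitosis and DNA replication were higher for 12 of 27 and lower for 6, ER chaperones 3 and 5 of 14, NF-kappaB targets 5 and 5 of 18, and colon cancer genes 10 and 10 of 27. MYC had medians of 198 CPM in replicate 3 and 136 CPM in replicate 2 (0.61 ± 0.06). Mitochondrially encoded genes were lower for 6 of 15 and higher for 0 by edgeR. None of 26 cancer-testis genes passed the filter on low counts.

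The size of the difference changed between the 10, 24 and 48 h libraries for part of the genes. In a fit with replicate nested in time, the log2 difference of replicate 3 minus replicate 2 was greater at 24 h than at 10 h for 1688 genes (8.18%) and smaller for 866 (4.2%). It was greater at 48 h than at 24 h for 616 genes (2.98%) and smaller for 436 (2.11%), with 3 pairs at 48 h. This fit held no lane term, and lanes were not balanced over the times. Flow cell and lane were shared by 3 of 12 pairs at 10 h, 2 of 12 at 24 h and 0 of 3 at 48 h. In the 48 h pairs, replicate 3 came from lane 4 of flow cell 2 and replicate 2 from its lane 2. Changes at 48 h thus cannot be told apart from lane, and the part of lane in the others was not tested. Of 6949 genes past the test at both 10 and 24 h, 227 had opposite signs at these times. Of the hypoxia and glycolysis list, 9 of 19 members passed the test of 24 h minus 10 h and 11 passed that of 48 h minus 24 h, all upwards. In that list, 1 gene was higher and 15 were lower in replicate 3 at 10 h (median -0.33), 4 were higher and 5 lower at 24 h (-0.05), and 14 were higher and 0 lower at 48 h (0.41). Over all genes, 4681 were higher and 4649 lower at 10 h, 5145 were higher and 4826 lower at 24 h, and 3610 were higher and 3036 lower at 48 h.

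PFKFB4, a hypoxia-induced regulator of glycolysis, averaged 8.63 CPM in replicate 3 and 21.5 CPM in replicate 2 at 10 h, 31.1 CPM in replicate 3 and 21.9 CPM in replicate 2 at 24 h, and 92.1 CPM in replicate 3 and 40.8 CPM in replicate 2 at 48 h, over paired libraries. The replicate 3 level therefore started below and ended above that of replicate 2, with log2 differences of -1.32, 0.50 and 1.17. PDK1, the kinase that restrains pyruvate entry into mitochondria, averaged 16.5, 49.4 and 130 CPM at 10, 24 and 48 h in replicate 3 and 36.2, 63.9 and 115 CPM in replicate 2. ENO2, the neuronal enolase and a hypoxia target, averaged 7.69, 9.14 and 37.9 CPM in replicate 3 and 8.71, 4.97 and 8.82 CPM in replicate 2. Both genes increased over time in replicate 3 to a greater extent, and ENO2 passed both tests of the difference between times (1.09 ± 0.24 and 1.12 ± 0.30). AQP10, an aquaglyceroporin, averaged 0.739, 3.32 and 46.6 CPM in replicate 3 and 7.56, 4.17 and 14.6 CPM in replicate 2, the greatest change of sign among the genes named. ATP8B2, a phospholipid flippase, averaged 5.69, 10.2 and 57.4 CPM in replicate 3 and 9.95, 4.88 and 16.3 CPM in replicate 2. Cell density was not recorded in the labels, and its part in these differences was not tested.

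Sterol and fatty acid synthesis genes were lower in replicate 3 for 20 of 24 members at 10 h, 18 at 24 h and 9 at 48 h, with 0, 2 and 4 higher. Mitosis and DNA replication genes were higher for 8 and lower for 10 of 27 at 10 h, 11 higher and 7 lower at 24 h, and 16 higher and 2 lower at 48 h. Crypt and WNT genes were higher for 9, 10 and 13 of 18 at 10, 24 and 48 h, and lower for 3, 3 and 1. Plasma protein genes had 8 of 21 members with a difference more negative at 48 h than at 24 h and 0 more positive. The cubilin gene CUBN, an endocytic receptor of the absorptive surface, averaged 1.23, 1.02 and 1.24 CPM in replicate 3 and 0.737, 1.42 and 6.77 CPM in replicate 2. MUC5AC averaged 5.78, 4.66 and 4.18 CPM in replicate 3 and 2.67, 0.553 and 0.602 CPM in replicate 2.

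A change of the difference with the way of delivery was not detected at this number of pairs, in a fit that pooled 10 and 24 h. That fit held no term for the change of the difference with time, which therefore stays in its residual spread. The result does not show that delivery was without effect. With 14 transfected and 10 incubated pairs at 10 and 24 h, edgeR found 0 genes (0%) whose log2 difference of replicate 3 minus replicate 2 differed between transfected and incubated cells. At an unadjusted p under 0.05 there were 926, and DESeq2 also found 0 with 637 at an unadjusted p under 0.05. For FN1, the log2 difference was 1.29 in transfected and 1.30 in incubated cells.

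Neighbouring genes moved together along several chromosomes. For each library, the median over the genes of a chromosome (mean log2 CPM of at least 1) of the log2 CPM minus the gene's mean was taken, and replicates were compared with limma. Chromosome 13 was lower in replicate 3 by 0.35 on the log2 scale, a ratio of 0.784, and chromosome 21 was higher by 0.29, a ratio of 1.23. The chromosome 13 median of a library was -0.21 to -0.11 in replicate 3 and 0.15 to 0.22 in replicate 2, and the chromosome 21 median was 0.09 to 0.21 in replicate 3 and -0.23 to -0.07 in replicate 2. Neither range overlapped. The pair difference of chromosome 13 was -0.42 to -0.30, and that of chromosome 21 was 0.18 to 0.40, so all 27 pairs had the same sign. On chromosome 13, 90.1% of 273 genes had a negative fold change, and on chromosome 21, 88.8% of 161 genes had a positive one. In the gene test, 5% of the tested genes of chromosome 13 were higher and 70.8% lower in replicate 3, against 59.3% higher and 7.08% lower on chromosome 21.

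Smaller shifts were measured for most other chromosomes. Chromosome 5 (0.22), 20 (0.19), 8 (0.19), 19 (0.15) and 10 (0.12) were higher, and chromosome 7 (-0.17), 11 (-0.11) and 22 (-0.10) were lower. Of 23 chromosomes, chromosome 18 was the one whose difference did not pass the test (-0.01 ± 0.01, limma adjusted p = 0.381). Without genes whose absolute log2 fold change was 1 or more, chromosome 13 differed by -0.34 and chromosome 21 by 0.29. In the 5 pairs whose libraries shared flow cell and lane, the values were -0.34 and 0.28. At 10, 24 and 48 h, chromosome 13 differed by -0.33, -0.38 and -0.32, and chromosome 21 by 0.28, 0.30 and 0.33. RNA levels over a chromosome are no measurement of DNA copy number, which was not tested.

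**Figure D3:**
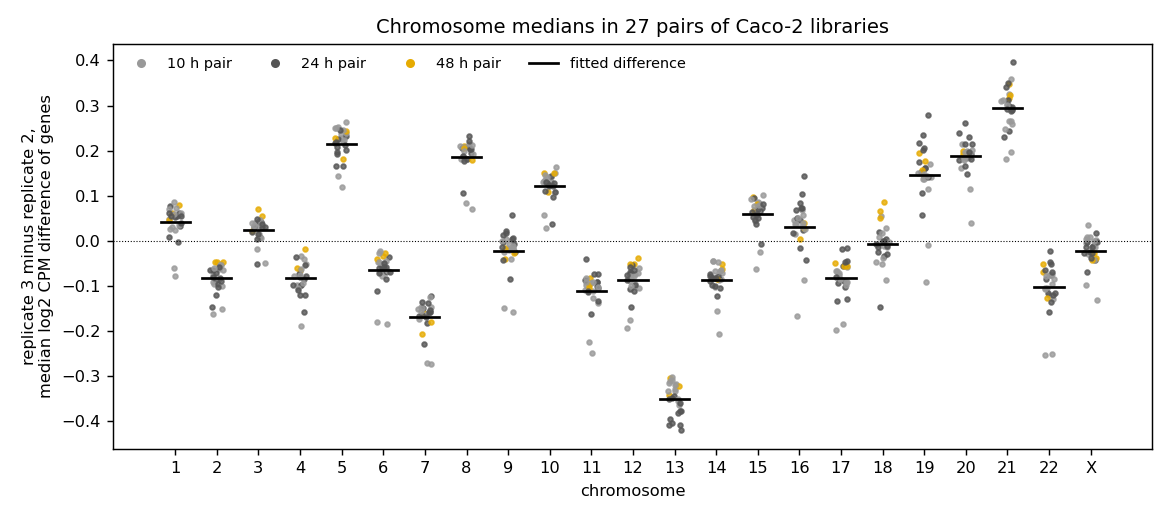
Each point is 1 of 27 pairs (coloured by time), placed by the replicate 3 minus replicate 2 difference of the chromosome median in log2 CPM (vertical axis), with the fitted difference as a black line for each chromosome (horizontal axis). All pairs of chromosome 13 lie between -0.42 and -0.30, and all pairs of chromosome 21 between 0.18 and 0.40.

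Within chromosomes the shift was not even. In 289 windows of 10 Mb with at least 10 genes, 111 (38.4%) were higher and 141 (48.8%) lower in replicate 3, of which 28 and 29 by at least 0.2. The median difference over all windows was -0.02, so small differences are to be read beside this offset. Pairs with a shallow replicate 3 library could lie lower: chromosome 1 differed by -0.08 (ANC 5 ng 10 h) and -0.06 (PmRNA 10 h), against 0.04 in the fit. The highest window was the end of the long arm of chromosome 20 from 60 Mb (0.40 ± 0.02, 64 genes), and the lowest was chromosome 4 from 40 to 50 Mb (-0.41 ± 0.02, 31 genes). On chromosome 4, the windows from 30 to 50 Mb differed by -0.31 and -0.41, whereas the next, from 50 to 60 Mb, differed by 0.11. On chromosome 8, the windows from 60 to 80 Mb were lower (-0.26 and -0.34), while that from 120 to 130 Mb was higher (0.30). Chromosome 17 was lower in its first 10 Mb (-0.32, 179 genes) and higher in the next 10 Mb (0.19, 83 genes). Chromosome 9 was higher up to 40 Mb (0.11 to 0.19) and lower from 70 Mb on (-0.09 to -0.05). Chromosome 13 was lower in all 8 of its windows (-0.40 to -0.32) and chromosome 5 higher in all 18 of its windows (0.13 to 0.29). Of 27 pairs, 0 were higher in any window of chromosome 13, in those of chromosome 4 from 30 to 50 Mb, in those of chromosome 8 from 60 to 80 Mb and in the first window of chromosome 17.

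**Figure D4:**
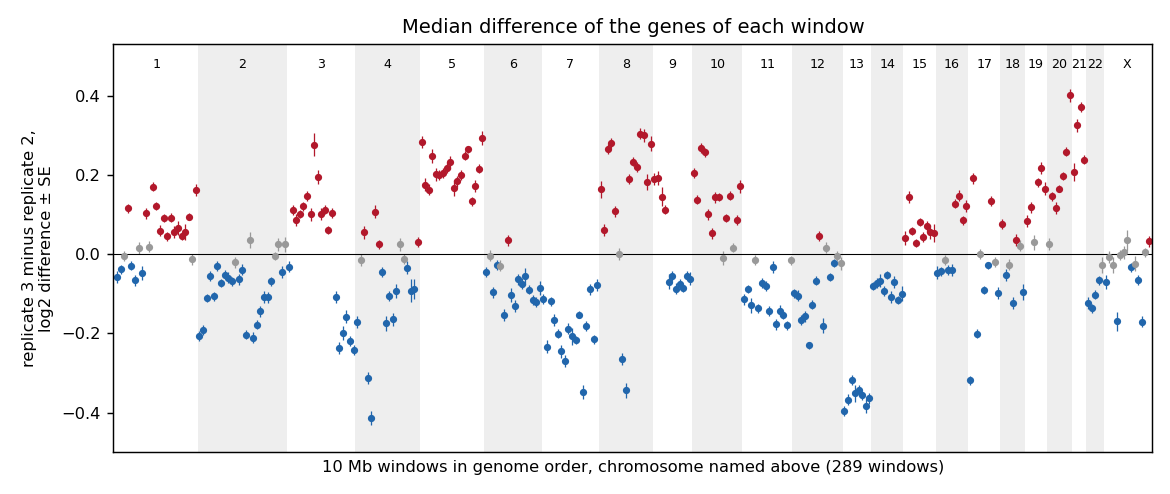
Each point is the difference of replicate 3 minus replicate 2 of 1 of 289 windows of 10 Mb in log2 CPM (vertical axis, bars are SE), in genome order with every other chromosome shaded (horizontal axis), red where higher and blue where lower past the test and grey otherwise. Chromosome 13 lies below 0 along its length, chromosome 21 lies above it, and chromosomes 4, 8 and 17 hold windows on both sides of 0.

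The most counted genes past the test in the outermost windows give examples of single genes. Genes that did not pass were left out, so the examples lean towards larger differences. In the chromosome 20 window, RPS21, a ribosomal protein gene, had 213, 292 and 353 CPM in replicate 3, against 157, 205 and 246 CPM in replicate 2 (0.50 ± 0.03). PSMA7, a proteasome subunit gene, differed by 0.42 ± 0.03. On chromosome 21, the chaperonin gene CCT8 had medians of 219 CPM in replicate 3 and 165 CPM in replicate 2 (0.43 ± 0.03), and TTC3 had medians of 214 CPM in replicate 3 and 161 CPM in replicate 2 (0.42 ± 0.02). On chromosome 8, ATAD2, a bromodomain ATPase, had 104.2 to 142 CPM in replicate 3 and 74.8 to 102.5 CPM in replicate 2 (0.39 ± 0.03). RPS21, PSMA7, CCT8, TTC3 and ATAD2 had ratios of 1.31 to 1.41, beside 1.23 to 1.32 for the medians of their windows, which include genes not past the test. On chromosome 13, the ribosomal protein gene RPL21 had medians of 282 CPM in replicate 3 and 373 CPM in replicate 2 (-0.41 ± 0.02), LAMP1, a lysosomal membrane protein gene, of 294 CPM in replicate 3 and 380 CPM in replicate 2 (-0.39 ± 0.02), and EFNB2, an ephrin ligand, of 119 CPM in replicate 3 and 192 CPM in replicate 2 (-0.70 ± 0.03). On chromosome 4, TMEM33, a membrane protein of the endoplasmic reticulum, had 71.7, 100.0 and 154 CPM in replicate 3, against 122, 164 and 248 CPM in replicate 2 (-0.78 ± 0.03). RBM47, an RNA-binding protein that supports cytidine editing of APOB mRNA, had medians of 123 CPM in replicate 3 and 176 CPM in replicate 2 (-0.44 ± 0.02).

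Libraries labelled replicate 4 and 5 were then placed beside the replicates 3 and 2 of their own treatment group. Outside the excluded lanes there were 6 libraries of replicate 4 and 5 of replicate 5, all from the same lane of the same flow cell. The distance was the root mean square of log2 CPM differences over 15857 genes. The 6 replicate 4 libraries lay 0.267 to 0.329 from replicate 3 and 0.4596 to 0.4932 from replicate 2, and all 6 were nearer to replicate 3. The 4 replicate 5 libraries with both partners lay 0.446 to 0.809 from replicate 3 and 0.284 to 0.363 from replicate 2, and all 4 were nearer to replicate 2. The distances of 0.809 and 0.715 were to replicate 3 libraries of 805396 and 1313457 counts. The other 2 lay 0.455 and 0.446 from replicate 3 and 0.3015 and 0.284 from replicate 2, a mean difference of -0.158 (a split chosen after seeing the data). In an exact two-sided sign-flip permutation test the mean difference of distances was 0.182 for replicate 4 (n = 6, p = 0.03125) and -0.294 for replicate 5 (n = 4, p = 0.125), each the smallest p that its number of libraries allows. On a scale where replicate 2 is 0 and replicate 3 is 1, built from the other treatment groups, replicate 4 libraries stood at 0.99 to 1.04 and replicate 5 libraries at 0.02 to 0.09. The replicate 5 library of the 48 h PBS group had a replicate 2 partner only, at a distance of 0.342.

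Gene counts in the same treatment groups gave the same order. In the 6 groups with replicate 4, edgeR called 290 genes (1.4%) between replicate 4 and replicate 3, 7366 (35.7%) between replicate 4 and replicate 2, and 7125 (34.5%) between replicate 3 and replicate 2. In the 4 groups with replicate 5, it called 274 genes (1.33%) between replicate 5 and replicate 2, 4106 (19.9%) between replicate 5 and replicate 3, and 4020 (19.5%) between replicate 3 and replicate 2. These comparisons share libraries, and their counts are given side by side only. The difference between the chromosome 21 and chromosome 13 medians was 0.20 to 0.38 in replicate 3, -0.43 to -0.25 in replicate 2, 0.32 to 0.35 in replicate 4 and -0.36 to -0.29 in replicate 5. Replicate 4 libraries thus resembled replicate 3 and replicate 5 libraries resembled replicate 2 in each of these measures, whereas the libraries of the excluded lanes did not divide by label in this way and are given at the end as values.

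**Figure D5:**
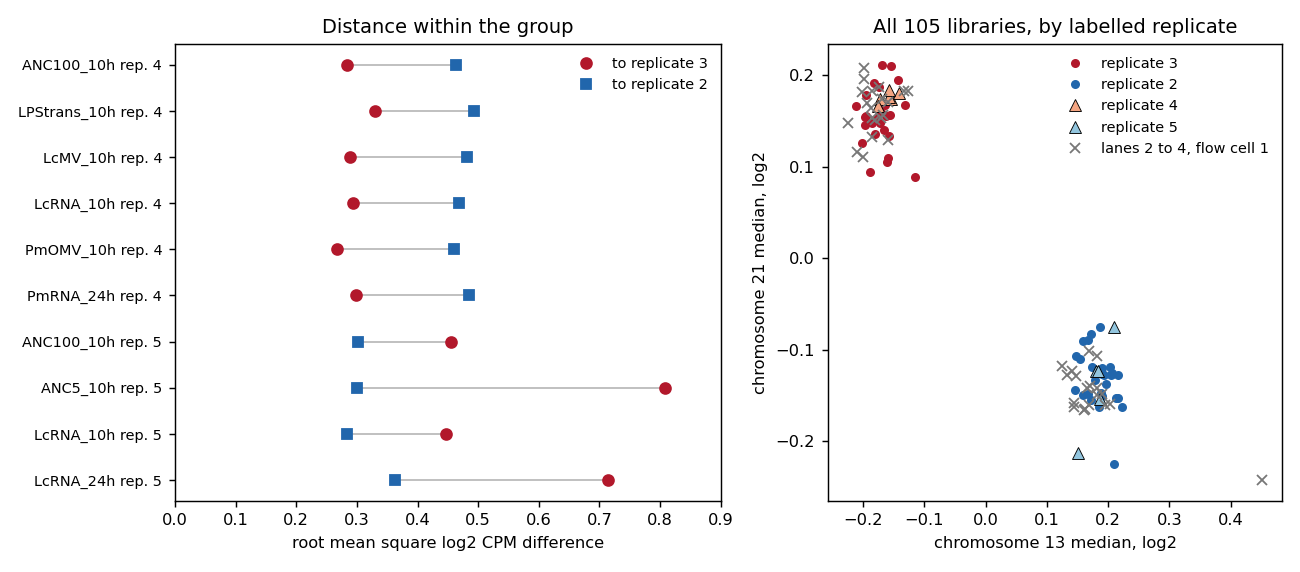
Left, the root mean square log2 CPM difference (horizontal axis) of each replicate 4 or 5 library to replicate 3 (circle) and to replicate 2 (square) of its own group; right, the chromosome 21 median against the chromosome 13 median, in log2, for all 105 libraries by labelled replicate, with crosses for the excluded lanes. Replicate 4 libraries are 0.267 to 0.329 from replicate 3, replicate 5 libraries are 0.284 to 0.363 from replicate 2, and on the right the libraries form a cloud with chromosome 21 above chromosome 13 and another below it.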

How the data were processed

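Total RNA of Caco-2 cells was rRNA-depleted and sequenced paired-end on a DNBSEQ instrument. Per the labels and methods, the authors aligned reads to GRCh38 with STAR, marked duplicates with sambamba and counted primary alignments per gene with featureCounts, and they deposited 1 table of raw counts for 63241 Ensembl gene IDs, of which 62666 were matched to GENCODE version 44. Whether counting used strand is not given in the sources used here. The deposited counts were used as they stand.

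Groups, times and replicate numbers came from sample titles, and flow cell and lane from library names. Genes with too few counts were removed with filterByExpr (20643 of 44055 genes with a count remained) and counts were scaled with TMM. The comparison used edgeR 4.0.16 (glmQLFit with robust estimation, glmQLFTest, two-sided, Benjamini-Hochberg adjustment over all genes tested, threshold 0.05) with treatment group as a block and replicate number as the tested term, so that libraries were paired by treatment group. Replicate was nested in time or in delivery for the interaction tests. CPM are counts divided by the TMM-scaled library size and compare a gene between libraries, not genes with each other. The common biological coefficient of variation was 0.068. Chromosome and window medians used log2 CPM with a prior count of 2 and limma 3.58.1 with the same block. Ratios with few counts carry an exact 95% interval for counting error.

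Named genes were the 12 highest and 12 lowest fold changes (symbol, mean CPM of at least 1, same sign in all pairs), the 8 smallest p in each direction, up to 3 members of each list in each direction, up to 4 genes with the highest mean CPM in each of the 5 highest and 5 lowest windows, and up to 5 genes in each direction of each interaction. Apart from the interactions, these were taken only from genes past the test of replicate 3 against replicate 2. Interaction genes were past their own test. Genes named outside this rule are said to be so. Some genes that the rule names are not reported here. The members, lists and tests were chosen with earlier results of these data known. Alternatives were DESeq2 1.42.0, limma voom, other filters, no block, flow cell and lane as covariates, single times, pairs of shared lane, and leaving out each treatment group; the lanes left out hold 39 libraries. The fits were tested on simulated counts.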

Additional observations from a re-analysis of the deposited data

Results flagged for a closer look

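The difference of replicate 3 minus replicate 2 was itself tested between times, in the fit without a lane term. It was greater at 24 h than at 10 h for 1688 genes and smaller for 866, and greater at 48 h than at 24 h for 616 genes and smaller for 436, by edgeR. On the log2 scale, 24 h minus 10 h gave 2.82 for AQP10, 2.09 for MUC5AC, 1.86 for ATP8B2, 1.82 for PFKFB4 and 1.59 for LGI4, and -1.33 for RUNDC3A-AS1, -1.34 for TMEM207, -1.45 for MT1F, -1.52 for MS4A10 and -2.60 for TLL1. In TLL1 the replicate 2 level was 0 CPM at 10 h, so its value depends on the prior count. The test of 48 h minus 24 h gave 2.07 for LINC01559, 1.96 for AQP10, 1.84 for SYN2, 1.82 for PIGAP1 and 1.69 for SLC1A2, and -1.45 for LRRC31, -1.65 for CAHM, -1.80 for SGPP2, -1.90 for CUBN and -2.39 for PRDM16-DT.

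MS4A10, MT1F and LRRC31 were among the genes whose level was raised with time in replicate 2 more than in replicate 3. MS4A10 averaged 0.478, 0.825 and 4.07 CPM at 10, 24 and 48 h in replicate 3 and 0.592, 3.74 and 15.1 CPM in replicate 2, over paired libraries. LRRC31 averaged 0.624, 1.41 and 1.84 CPM in replicate 3 and 0.750, 2.23 and 7.53 CPM in replicate 2. LGI4 averaged 1.47, 7.87 and 77.3 CPM in replicate 3 and 4.04, 6.73 and 41.8 CPM in replicate 2.

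In the placement of replicate 4 and 5 libraries, 1 of 14 checks found a library far from the others, where chance flags about 1 in 20. The ANC 5 ng 10 h library of replicate 5 had a chromosome 21 median -0.1645 from that of its replicate 3 partner, against -0.31 to -0.29 for the other 3 replicate 5 libraries. That partner held 805396 counts.

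Lanes 2 to 4 of flow cell 1, which the comparison leaves out, hold 39 libraries. The difference of the chromosome 21 and 13 medians was above 0 in 20 of them and below 0 in 19. The lowest was -0.693, in the LcRNA 48 h library labelled replicate 4.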

How the results depend on the processing

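No paired analysis was possible with the replicate number as a block because that number is the contrast itself; libraries were paired by treatment group, and without that block 6192 genes were higher and 5905 lower in replicate 3. With the 5 pairs of shared lane alone, 2701 genes were higher and 2626 lower, and with the 3 pairs at 48 h alone, 2981 were higher and 2789 lower; both fits hold fewer libraries. The other alternatives gave 4608 to 6192 higher and 4817 to 6103 lower genes. Without single treatment groups the ranges were 5555 to 5976 higher and 5660 to 6138 lower genes, 47.5 to 51.1% of calls higher, 37 to 39.8% of windows higher and 46.7 to 48.8% lower. The extreme of the gene counts, 5555 higher and 6138 lower, came without the LcRNA 24 h group. The difference of distances was 0.1797 to 0.1853 for replicate 4 without single libraries, where the exact permutation p was 0.0625, the smallest for 5 libraries, and -0.3411 to -0.2225 for replicate 5.

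For 142 genes followed through the alternatives, 8 of 5792 values turned in sign, and for 23 chromosomes 1 of 828 values did. A turn was counted where the full or the alternative fit passed the test, and the cause was not tested. Larger turns of sign between times, such as those of PFKFB4 and AQP10, are given above, as is the number of genes with opposite signs at 10 and 24 h. With the 48 h pairs alone the log2 difference was 0.0669 for chromosome 18, 0.007 for LEF1, 0.3261 for REG4, 0.1623 for PDK1 and 0.1612 for HNF4A. With the 10 h pairs alone it was 0.0419 for SLC26A3, -0.1401 for ENO2 and -0.0435 for CLDN2, and in pairs of shared lane it was -0.0793 for HP. HNF4A was past the test in the full comparison and lost its call without any of 7 single groups. In the library with 632659 counts, 1 count is more than 1 CPM, so values near 0 there say little about low genes.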

Other observations

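The libraries of lanes 2 to 4 of flow cell 1 did not sort by their labels in the difference of the chromosome 21 and 13 medians. Of those labelled replicate 4, 7 were above 0 and 11 below, whereas all 6 replicate 4 libraries of the other lanes were above. Of those labelled replicate 5, 12 were above 0 and 8 below, whereas all 5 replicate 5 libraries of the other lanes were below. The values above 0 ran from 0.29 to 0.41 and those below 0, without the lowest, from -0.36 to -0.24, next to 0.20 to 0.38 in replicate 3 and -0.43 to -0.25 in replicate 2 of the comparison. Among the libraries of lanes 2 to 4, no value lay between -0.2428 and 0.2885. The labels were kept as given, and no group was formed from these values.

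PROX1, a homeobox gene that is induced by WNT signalling in colon tumours, was looked up after its value was seen. It had 36.4, 50.05 and 65.5 CPM in replicate 3, against 12.7, 20.4 and 29.0 CPM in replicate 2 (1.28 ± 0.05 on the log2 scale), without overlap. KLF4, a factor of terminal differentiation in the gut, averaged 11.97 CPM in replicate 3 and 5.59 CPM in replicate 2 (1.09 ± 0.11), and SLC15A1, the peptide transporter of enterocytes, averaged 10.3 CPM in replicate 3 and 21.9 CPM in replicate 2 (-1.03 ± 0.10). Both were chosen in the same way.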
